A study of Populus tremula x Populus alba with 12 samples.

Results

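Leaves of a hybrid poplar in which a glycosyltransferase had been disrupted were compared with leaves of both control genotypes of the same study. The members were the 3 libraries with the genotype label Knockout, set against the 3 labelled Wild-type and the 3 labelled Empty-Vector, 9 of the 12 libraries of the series. The other 3 libraries, labelled Intermediate Phenotype, took no part in the contrast of knockout with controls. They did enter the filter on low counts, the scaling, the estimate of spread, the principal components and the bins of expression. All plants were Populus tremula x Populus alba of the clone INRA 717, propagated in vitro and kept for 3 months in a greenhouse with supplemental light, and RNA came from fully expanded leaves of the mid-stem. The study title gives CRISPR as the means of disruption. The labels do not name the edited gene, and leave unsaid whether the 3 knockout libraries represent independent editing events or clonal copies of a single event, so the p-values below measure the spread between these libraries.

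Family 1 glycosyltransferases of plants move a sugar from a UDP-sugar onto small molecules such as phenols, hormones and flavonoids, which changes their solubility, storage and activity. Poplar leaves are known for salicinoids, phenolic glycosides that deter herbivores and that are made in part by such enzymes. In poplar the glucosyltransferase UGT71L1 acts in salicinoid synthesis. The comparison asked how far leaf transcript levels moved as a whole when this type of enzyme was lost, in which direction, at which expression levels and how evenly among the knockout plants.

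The deposited values were raw counts for 16866 transcript rows of 16607 loci, with IDs of the Populus trichocarpa type. Total counts of the 9 libraries ran from 5.38 to 17.3 M counts, and 14279 rows passed a filter on low counts and were tested. Levels are given in CPM, counts scaled to a common library total after TMM normalization, which does not adjust for transcript length. A row is named as called where edgeR's quasi-likelihood test gave a Benjamini-Hochberg adjusted p under 0.05 over all tested rows. The tables carry IDs without names, so the account below rests on counts of rows, on 4 rows chosen by rule and on short lists of published poplar IDs. These are bulk leaf samples, in which fewer cells of a type and less RNA per cell cannot be told apart.

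The salicinoid glucosyltransferase is given before the rest. UGT71L1 (Potri.016G014500.1) read 9.58, 11.2 and 10.1 CPM in knockout. Wild-type leaves held 53.8, 38.9 and 34.6 CPM, and empty-vector leaves 36.5, 77.2 and 33.5 CPM. All knockout libraries lay below all controls. The fall was 4.44-fold, bounded at 95% by 2.82 and 6.99 (edgeR adjusted p = 2.3e-04). Since small edits need not lower an RNA and the labels do not name the target, its level is no check of genotype.

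Knockout leaves formed a group of their own over the whole transcriptome. On the main principal component of log2 CPM, which held 53.4% of the variance, the knockout libraries scored 90.2, 97.9 and 70.5. The 6 controls scored between −42.7 and −24.7. Intermediate libraries scored 1.84, −37.2 and −9.29. The next component, with 16.9% of the variance, divided the controls instead: wild-type libraries 1 and 2 scored 46.0 and 36.8, and empty-vector libraries 1 and 3 scored −50.1 and −47.6, with knockout between −15.5 and 6.41. Wild-type library 3 at −11.9 and empty-vector library 2 at 17.8 lay in between, in reversed order. This component therefore followed the control genotype only in part. Pairs of knockout libraries had correlations of log2 CPM across rows of 0.953 to 0.976, against 0.853 to 0.917 for knockout with empty-vector, 0.861 to 0.902 for knockout with wild-type and 0.933 to 0.977 for wild-type with empty-vector. These are correlations across rows, which are not independent replicates.

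**Figure D1:**
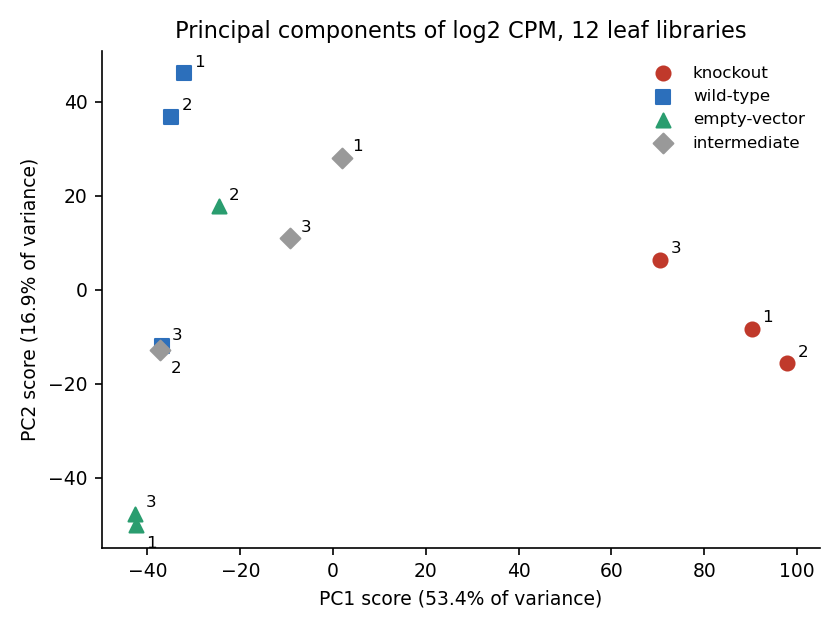
Scores of the 12 leaf libraries on the principal components of log2 CPM over 14279 rows, coloured and shaped by genotype label, with numbers giving the replicate. The 3 knockout libraries lie between 70.5 and 97.9 on the horizontal axis and all controls lie at or below −24.7.

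The response was broad and mostly moderate in size. Of 14279 tested rows, edgeR called 4296, which is 30.1% (background over all tested rows), in 4285 loci. At an unadjusted p under 0.05 there were 5818 rows, or 40.7%. The median absolute log2 fold change was 0.39 over all tested rows and 1.16, or 2.24-fold, over called rows. The upper quartile of called rows began at a log2 value of 1.88 and the highest 5% at 4.02. Of the calls, 3697 exceeded 1.5-fold, 2516 exceeded 2-fold (17.6% of tested rows), 960 exceeded 4-fold and 450 exceeded 8-fold. Requiring a fold change above 1.2 within the test itself (glmTreat) left 3288 calls.

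The difference between the control genotypes gives the scale. Empty-vector and wild-type differed in 6 rows by edgeR, or 0.042% of those tested, 5 higher (0.035%) and 1 lower (0.007%) in empty-vector. At an unadjusted p under 0.05 they differed in 2409 rows (16.9%), and DESeq2 called 243. Their median absolute log2 fold change was 0.29, while that of knockout was 0.39 against empty-vector and 0.46 against wild-type. The upper 5% of absolute log2 values began at 1.01 between the control genotypes, at 2.49 for knockout against empty-vector and at 2.43 against wild-type. The knockout comparisons were therefore wider at both points of the distribution, and by more at the tail than at the median. With the controls taken apart, edgeR called 3557 rows against empty-vector (24.9%), 1932 higher (13.5%) and 1625 lower (11.4%), with 2388 past 2-fold (16.7%) and 5254 at an unadjusted p under 0.05 (36.8%). Against wild-type it called 3902 rows (27.3%), 2238 higher (15.7%) and 1664 lower (11.7%), with 2524 past 2-fold (17.7%) and 5691 at an unadjusted p under 0.05 (39.9%). These comparisons share the knockout libraries. The small number of calls between the controls rested on empty-vector library 2, the deepest library: without it edgeR called 1302.

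More rows rose than fell. Of the 4296 calls, 2439 were higher in knockout (17.1% of tested rows) and 1857 lower (13% of tested rows), so that 56.8% of calls were higher. The median log2 change was 1.14 among the higher and −1.19 among the lower rows. The median over all tested rows was −0.02, and no scaling tried moved it by as much as 0.1. Each scaling sets the bulk of rows about level between libraries, so this median cannot show an overall shift or its absence. Higher calls remained the majority in each alternative run, from 51.7% where a row needed 10 counts in 6 libraries to 59.3% in limma-voom. A row with such counts in the knockout libraries alone cannot pass that filter, while a row with them in all controls can. The filter therefore works against higher calls by construction, and how far this set the 51.7% was not tested. With single libraries left out the share ran from 52.4% without empty-vector library 2 to 62.1% without knockout library 1.

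The filter on low counts could bear on that excess. Of the tested rows, 491 would fail it if the knockout libraries were removed, and 292 of these were called higher and 0 lower. These rows owed their place in the test to the knockout libraries, so their direction is not read as a result. In the other direction, 1107 rows would fail without the controls, of which 258 were called lower and 27 higher. With the filter set on the 9 other libraries, edgeR called 2220 higher and 1739 lower, 56.1% higher. Among the 12864 rows that pass after either removal, 2144 were called higher and 1599 lower. The excess of higher calls was thus present in these rows too.

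In the main fit the excess of higher calls narrowed as fold changes grew. Above 2-fold there were 1387 higher and 1129 lower calls, above 4-fold 521 and 439, and above 8-fold 235 and 215. The narrowing was not seen in every alternative. Without a filter 791 of 2742 higher and 515 of 1900 lower calls exceeded 4-fold, which is no narrowing. In limma-voom it was seen, with 514 of 2382 and 374 of 1633. Above 16-fold the fitted values of the main fit gave 98 higher and 119 lower, and above 64-fold 19 and 48. Fitted values at that end lean on near-empty groups: 14 of the lower rows above 64-fold had 0 counts in all knockout libraries and 22 had at most 3. With a floor of 3 counts over a group, which is 0.147 CPM in knockout and 0.0566 CPM in controls, 93 higher and 107 lower rows exceeded 16-fold and 17 and 30 exceeded 64-fold. The direction at this end did not hold under every setting. Without a filter 192 higher and 143 lower rows exceeded 16-fold. Higher rows also led in limma-voom (92 against 88) and without knockout library 1 (118 against 107). The same held without wild-type library 1 (136 against 130) or 3 (131 against 116). Without empty-vector library 1 it was 136 against 111, and without library 3 it was 126 against 115. Higher rows led as well with wild-type libraries 1 and 2, or empty-vector libraries 1 and 3, left out together. In the other alternatives lower rows led, as with DESeq2 (99 higher, 128 lower). The lead of lower rows was partly built in with 10 counts in 6 libraries (34 against 106). The same applies to the filter set on the 9 other libraries (30 against 118). Both filters drop rows counted in knockout alone.

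**Figure D2:**
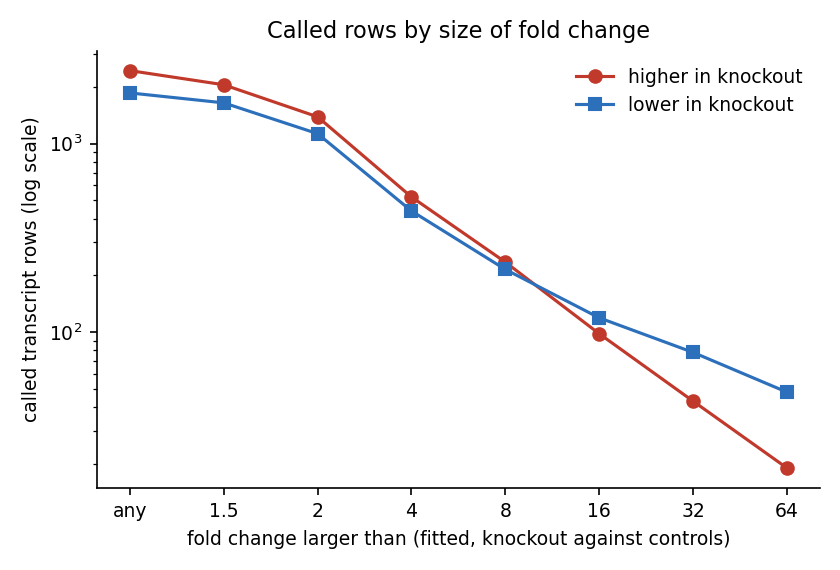
Number of called transcript rows (log axis) with a fitted fold change larger than the value on the horizontal axis, for rows higher and lower in knockout than in the 6 controls. Higher rows are more numerous up to 8-fold (235 against 215) and less numerous above 16-fold (98 against 119). That reversal was lost without a filter, in limma-voom and in several fits with libraries left out.

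Called rows were found at all expression levels. Tested rows were divided into 10 bins of equal size by their mean log2 CPM over the 4 group means. The share of rows called was 32.9% in the lowest bin, with a median level of 1.55 CPM, and 30.8% in the highest, with a median of 206 CPM. It ran from 24.3% to 33.8% over the 10 bins, beside 30.1% for all rows. The filter set much of the lowest bin: of its 1428 rows, 449 would fail without the knockout libraries (252 called higher, 0 lower), 933 would fail without the controls (25 higher, 177 lower), and 183 are in both numbers. Among the 229 rows of that bin that pass after either removal, 35 were called higher and 5 lower, or 17.5%, and in the next bin 19.6% of 1229 such rows were called. From the third bin upwards 27.4% to 33.7% of such rows were called, so the lowest bins are given as a description only. Precision differed between bins: the median SE of the log2 fold change was 0.44 in the lowest and 0.17 in the highest, so a given fold change was harder to call among scarce transcripts.

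What changed with level was the size of the calls. Called rows had a median change of 5.14-fold in the lowest bin, 2.35-fold in the fifth and 1.71-fold in the highest. In the lowest bin 32.4% of rows were called with more than 2-fold, against 10.2% in the highest. Few smaller changes were called in the lowest bin, where 32.9% of rows were called at any size. The error was larger in that bin and the filter bore on its rows, and their part in this pattern was not tested. Over all rows of a bin, called or not, the median absolute log2 change was 0.79 in the lowest and 0.30 in the highest. The same limit of error and filter applies to these medians. Higher calls made up 61.3% of calls in the lowest bin, 52.4% in the bin around 6.11 CPM and 59.8% in the highest. In the lowest bin 252 of the 288 higher calls would fail the filter without the knockout libraries, and in the next bin 39 of 209. The 61.3% is therefore not read as a result. Among rows that pass after either removal, higher calls outnumbered lower calls in all 10 bins, with 35 and 5 in the lowest and 168 and 73 in the next.

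**Figure D3:**
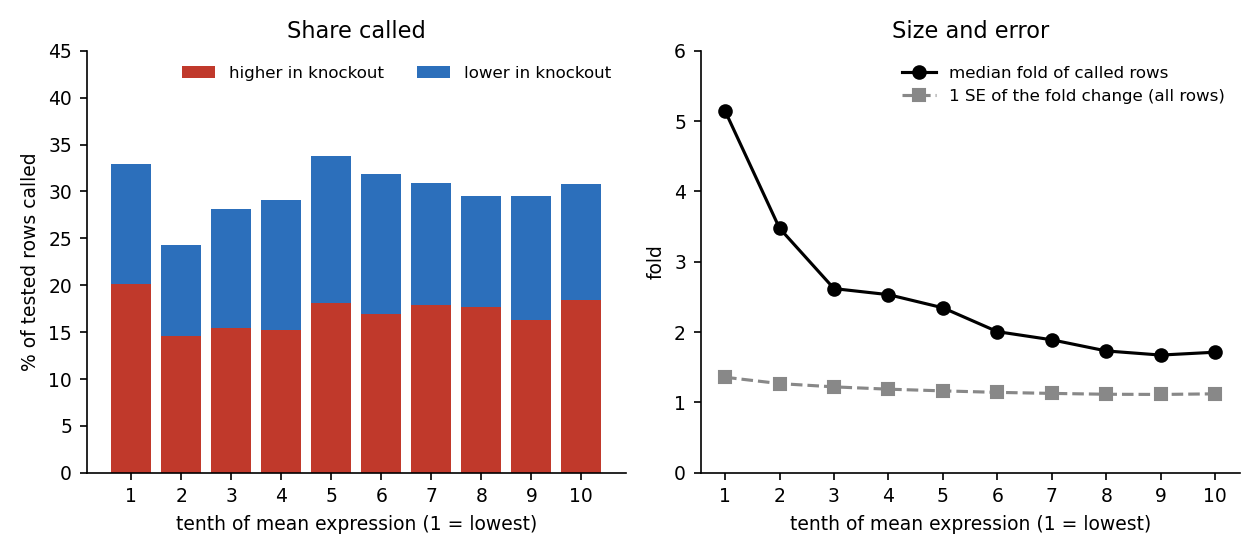
Left, share of tested rows called higher and lower in knockout in 10 bins of mean expression, from 24.3% to 33.8% called in all. Right, median fold change of called rows, falling from 5.14 to 1.71 between the lowest and the highest bin, beside the median SE of the log2 fold change over all rows of the bin, drawn as a fold.

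A baseline read in one control genotype and a response read against the other shared no control library. In the lowest of 10 bins by wild-type level, 363 of 459 calls against empty-vector were higher in knockout (79.1%). In the bins above it the higher share was at most 56.4%, and 4 of those 9 bins had fewer higher than lower calls. By empty-vector level with the response against wild-type, 88.0% of calls in the lowest bin were higher, and in the other bins between 49.5% and 60.0%. Rows near 0 in controls have little room to fall, and the filter bears on these bins as well.

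Abundant leaf transcripts are set beside the 30.1% called among all tested rows, a share from which theirs was not tested to differ. Among the 100 most abundant rows of the controls, 24 were called, 6 higher and 18 lower. Among the 1000 most abundant, 312 were called, 140 higher and 172 lower. Rows picked as high in controls can lean towards a lower value in any other sample. Of the 100 most abundant rows in controls, 75 were among the 100 most abundant in knockout, where wild-type and empty-vector shared 84. At the other end, 228 of the higher calls (9.35%) read under 1 CPM in controls, and 337 of the lower calls (18.1%) read under 1 CPM in knockout. Both ends were the minority, so most called rows were detected in both conditions. Over all tested rows, 272 read under 1 CPM in controls and 547 in knockout. Rows this low in controls or in knockout can owe their place in the test to the other libraries. How often they were called, and in which direction, is therefore not read as a result.

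In terms of the mRNA pool, rows called higher held 25.7%, 27.0% and 21.8% of all counts in knockout and between 10.0% and 12.1% in the controls. Rows called lower held 6.90%, 6.61% and 8.64% in knockout and between 15.8% and 19.1% in the controls. The groups did not overlap in either measure, which the choice of rows fixes. The intermediate libraries, whose values took no part in choosing the direction of these rows, held between 11.4% and 12.7% in the rows called higher and 15.4% ± 2.31 (SD, n = 3) in the rows called lower. In CPM the shift lay in few rows. Of the 2439 higher rows, 52 held 50% of the summed gain, and 27 of the 1857 lower rows held 50% of the summed loss. Such sums weigh rows by abundance, and counts as a whole were concentrated too. The 100 most abundant rows held a mean of 34.4% of counts in knockout and 35.3% in controls. Whether the shift was more concentrated than the counts was not tested.

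**Figure D4:**
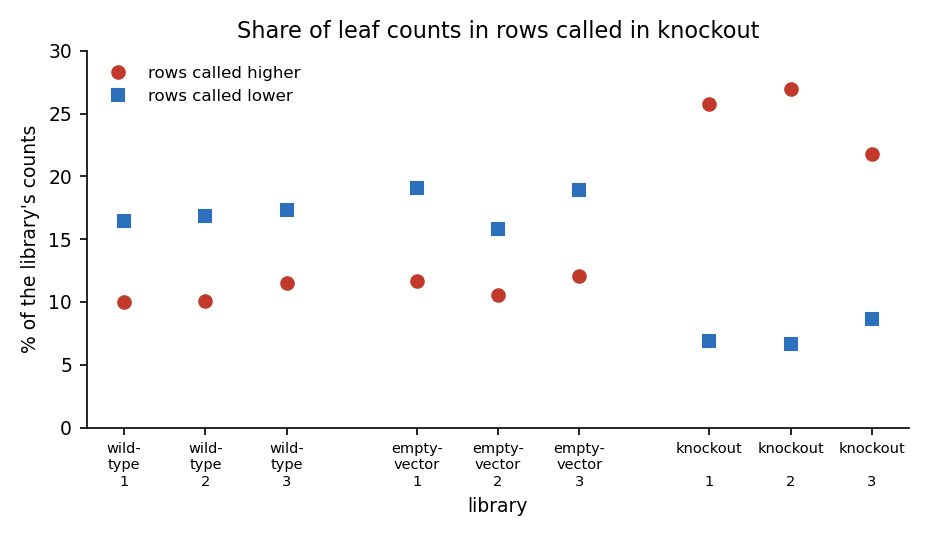
Percent of each library's counts that fell on rows called higher (circles) or lower (squares) in knockout, for the 3 libraries of each genotype. Rows called higher hold 21.8% to 27.0% of counts in knockout and 10.0% to 12.1% in controls; the rows were chosen with these libraries.

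The rows with the largest gain in CPM among called rows without overlap were Potri.014G149700.1 and Potri.018G014500.1. The former read 11024, 9969 and 1722 CPM in knockout leaves, while the 6 controls ran from 294 to 1201 CPM. Knockout library 3 stood well below the other knockout libraries, though above all controls. The row moved from rank 192 in controls to rank 7 in knockout, a 12.9-fold rise bounded at 95% by 4.80 and 34.5 (edgeR adjusted p = 0.0012). Potri.018G014500.1 was even among libraries, at 6022, 4187 and 6671 CPM in knockout and 662 to 1112 CPM in the controls. It was 6.77-fold higher (95% interval 5.06 to 9.05, edgeR adjusted p = 1.5e-06).

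The largest losses were those of Potri.005G246100.1 and Potri.018G025900.1, ranked 6 and 4 among all rows in controls. Potri.005G246100.1 read 3450, 4423 and 2204 CPM in knockout and from 6816 to 14366 CPM in controls, with empty-vector libraries 1 and 3 the lowest controls. It fell 3.17-fold, bounded at 95% by 2.10 and 4.79 (edgeR adjusted p = 7.2e-04). Potri.018G025900.1 read 6303, 5443 and 11277 CPM in knockout and 11755 to 16635 CPM in controls, so that knockout library 3 nearly reached the lowest control. Its 1.76-fold fall (log2 fold change −0.81 ± 0.25, SE; edgeR adjusted p = 0.029) was not called against empty-vector alone, at a log2 fold change of −0.68 (edgeR adjusted p = 0.10). The call, though not the direction, was also lost without knockout library 1 or 2 (edgeR adjusted p = 0.14 for each), without wild-type library 2 and under glmTreat (edgeR adjusted p = 0.058 for each), and without wild-type libraries 1 and 2 together (edgeR adjusted p = 0.091). In these fits its log2 fold change lay between −0.82 and −0.61. The other 3 rows passed in all 21 alternatives.

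No difference in the overall make-up of the libraries was detected. Rows with at least 1 CPM numbered 14228 ± 122 in knockout (SD, n = 3) and 14327 ± 339 in controls (SD, n = 6). The 10 most abundant rows held 12.8% ± 0.796 of counts in knockout and 14.2% ± 1.53 in controls. The effective number of transcripts, the exponential of the Shannon entropy of the counts, was 2121 ± 70.9 in knockout and 2059 ± 312 in controls. Of 5 such measures, including total counts and the share of the 100 most abundant rows, none passed an exact two-sided permutation test (unadjusted p from 0.19 to 0.76, adjusted p = 0.76 for each); the smallest p that 3 against 6 libraries allow is 0.024.

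The knockout libraries shared one direction in nearly all calls. In 4276 of the 4296 calls (99.5%) every knockout library lay on the called side of the control mean, and in 3495 (81.4%) all 3 lay beyond all 6 controls, a separation found in 27.8% of all tested rows. Of the 2516 calls above 2-fold, 1534 (61.0%) exceeded 2-fold in each knockout library. In 524 calls (12.2%) the range among the knockout libraries was larger than the log2 fold change itself. Since the test favours rows with such evenness, these numbers describe the calls and do not support them.

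A further reading took calls from 2 knockout libraries against wild-type and read them in the left-out knockout library against empty-vector. No library served both in the test and in the reading. Only rows that also passed the main filter on low counts were read, and that filter used all 12 libraries, the left-out ones included. The reading is thus free of selection by the test but not by the filter, whose effect on these shares was not tested. Left-out library 1 had the called direction in 2498 of 2573 calls (97.1%), library 2 in 2581 of 2736 (94.3%) and library 3 in 3457 of 4066 (85.0%). Over all tested rows, called or not, the directions matched in 73.5%, 70.9% and 66.0%. The left-out library lay beyond all 3 empty-vector libraries on the called side in 91.4%, 87.1% and 71.5% of calls. With calls made against empty-vector and read against wild-type, the directions matched in 96.4%, 96.8% and 92.1%.

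Knockout library 3 lay closer to the controls than the other knockout libraries. The slope of its log2 differences on the log2 fold changes of the other knockout libraries was 0.61, against 0.84 for library 1 and 0.87 for library 2. A slope below 1 comes with choosing rows by their fold change, and applies to all 3 readings. The gap was larger among lower calls, where the slope was 0.53 for library 3 and 0.88 for both others, than among higher calls, with 0.70 for library 3, 0.80 for library 1 and 0.86 for library 2. With the control genotypes exchanged, the slopes of lower calls were 0.51 for library 3 and 0.73 for each of the others. Among the 4296 calls, library 3 was the nearest of the 3 to the controls in 52.9% of rows and library 2 the farthest in 44.1%. No test of this difference between single libraries was possible, and at 9.20 M counts library 3 was also the deepest of the knockout group (5.83 and 5.38 M counts in the others).

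**Figure D5:**
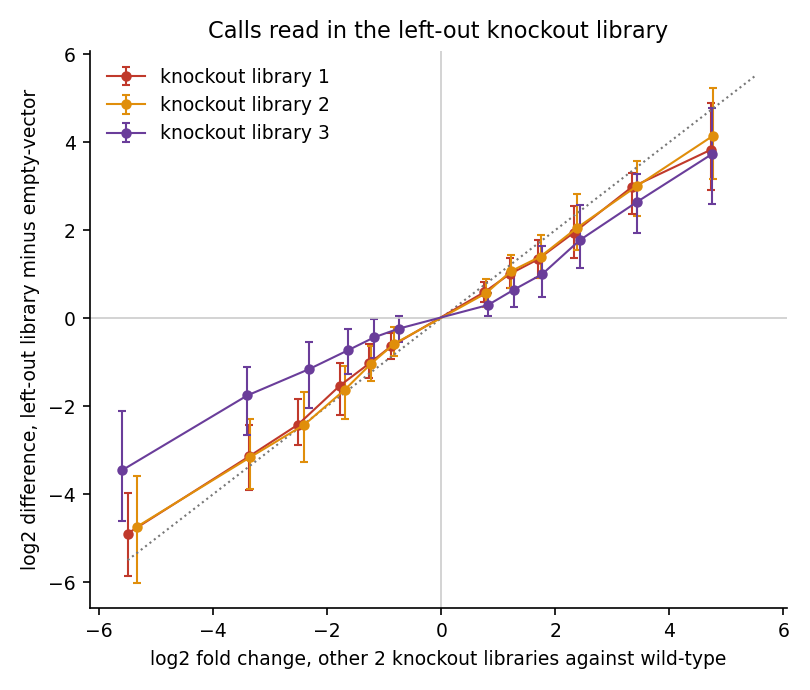
Median log2 difference of the left-out knockout library from empty-vector (vertical, with the middle 50% of rows as bars) against the median log2 fold change of calls made from the other knockout libraries against wild-type (horizontal), in bins of at least 20 calls. The dotted line marks equal size; library 3 lies nearer to 0 than libraries 1 and 2, most clearly on the left, where its median is −3.46 in the bin of the largest falls and theirs are −4.90 and −4.75.

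Leaving a library out of the fit gave the same picture in numbers of calls. Without knockout library 3 edgeR called 4206 rows, of which 3551 were among the 4296. Without library 1 or 2 it called 3099 and 3086, and 2976 and 2933 of these were among the 4296, with 0 changing sign in any alternative. Lower calls fell most, to 1176 without library 1 and 1191 without library 2. Over all rows the median SD of log2 CPM was 0.27 in each of knockout, wild-type and empty-vector. Among calls above 4-fold it was 0.51 in knockout, 0.43 in wild-type and 0.50 in empty-vector.

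The response was spread over the genome. The transcript IDs carry the chromosome number of the reference assembly. Over the 19 chromosomes the share of tested rows called ran from 27.1% on chromosome 18 to 35.4% on chromosome 7, beside 30.1% for all rows. Chromosome 14 was the 1 chromosome with fewer higher than lower calls, 83 and 106. Chromosome 19 had 91 higher and 47 lower. Rows on unplaced scaffolds had 124 higher and 47 lower calls among 514 tested, and a median log2 change of 0.14 where all rows had −0.02. Rows of unplaced scaffolds can be near-identical copies of genes elsewhere, so their counts are uncertain. No comparison between chromosomes was tested. Of 111 loci with more than 1 tested row, 11 had 2 or more rows called in 1 direction, 25 had 1 row called and 0 had rows called in opposite directions.

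The pathway lists cover few rows, and their counts stand beside 30.1% called among all tested rows (17.1% higher, 13% lower). In the salicinoid list of 3 loci, all of them tested, 1 was lower (UGT71L1), 1 was higher and 1 was not called. The benzoyltransferase Potri.019G043600.1, an acyltransferase that joins benzoyl groups to alcohols, read 445, 555 and 624 CPM in knockout, against 49.6 to 112 CPM in the controls, an 8.20-fold rise (95% interval 5.66 to 11.9, edgeR adjusted p = 4.2e-06). The other benzoyltransferase, Potri.013G074500.1, read 609, 819 and 781 CPM in knockout and 290 to 725 CPM in the controls, with overlap between the groups (edgeR adjusted p = 0.11). The list was described earlier on these libraries and is no independent evidence.

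The phenylpropanoid and monolignol list, which leads from phenylalanine to lignin precursors, had 13 of its 22 loci in the files and tested. None of the 13 was called, by edgeR (0), DESeq2 (0) or limma-voom (0), although 2 had an edgeR p below 0.05 before adjustment. Over all tested rows edgeR called 30.1%, and 40.7% were below 0.05 before adjustment. Single libraries decided this for 3 members: CCR2 (cinnamoyl-CoA reductase) and F5H1 (ferulate hydroxylase) were called higher without knockout library 3 (edgeR adjusted p = 0.0070 and 0.025), and 4CL5 (coumarate-CoA ligase) was called lower without empty-vector library 2 (edgeR adjusted p = 0.033). The 13 rows had a median log2 change of −0.09, beside −0.02 for all tested rows, and the range was −1.09 to 0.50. PAL1 (Potri.006G126800.1), the ammonia-lyase that takes phenylalanine into the pathway and the most abundant member, read 1627, 2487 and 2118 CPM in knockout and from 1451 to 2956 CPM in the controls (edgeR adjusted p = 0.80). The 95% interval for the fold by which PAL1 was lower ran from 0.741 to 1.54, so changes within that range were not excluded.

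Of the flavonoid and condensed tannin list, 6 of 13 loci were in the files, 4 were tested, and 2 of those were lower, where 13% of all tested rows were called lower. The row Potri.009G069100.1, assigned to F3'5'H, a cytochrome P450 that hydroxylates the flavonoid B-ring, read 5.47, 13.2 and 11.3 CPM in knockout and 18.6 to 56.0 CPM in the controls, 3.55-fold lower (95% interval 2.01 to 6.28, edgeR adjusted p = 0.0031). The row Potri.005G113900.1, assigned to F3H, which hydroxylates flavanones early in the pathway, read 65.2, 84.1 and 53.0 CPM in knockout. Wild-type leaves held 104, 89.8 and 117 CPM. Empty-vector leaves held 471, 96.9 and 240 CPM, with libraries 1 and 3 far above all others. Its 2.48-fold fall (edgeR adjusted p = 0.032) was lost without empty-vector libraries 1 and 3 (edgeR adjusted p = 0.13), and it passed in 15 of 21 alternatives. Leaving out knockout library 1, 2 or 3 gave edgeR adjusted p = 0.102, 0.0572 and 0.0850. It was 0.0502 in the absence of wild-type library 3 and 0.0711 in the absence of wild-type libraries 1 and 2. The summed level of the 4 tested rows was 113 to 173 CPM in knockout, 165 to 184 CPM in wild-type and empty-vector library 2, and 1883 and 599 CPM in empty-vector libraries 1 and 3. Of these sums, Potri.001G113100.1, assigned to ANS2, gave 1368 and 301 CPM in empty-vector libraries 1 and 3. That row was called lower against empty-vector alone, at a log2 fold change of −3.19 (edgeR adjusted p = 0.024). It was not called against wild-type alone, at 1.39 (edgeR adjusted p = 0.27), or against both (edgeR adjusted p = 0.41).

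Vein xylem was followed with secondary-wall cellulose synthases, since a leaf sample can hold more or less of it. Of 5 loci, 3 were in the files and tested (CesA4, CesA7-B and CesA8-A), and the number called was 0 in edgeR, DESeq2 and limma-voom alike, with 0 below an edgeR p of 0.05 before adjustment. Without knockout library 3, CesA4 was called higher (edgeR adjusted p = 0.018). Their summed level was 1402, 1527 and 357 CPM in knockout and ran from 497 to 1291 CPM in the controls. Knockout library 3 was thus the lowest and libraries 1 and 2 the highest of the 9 libraries, in the same order as the size of their response. Its part in the difference between the knockout libraries was not tested.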

How the data were processed

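The authors deposited raw counts of leaf mRNA, with 1 file for each library. Per the submitters' processing notes the tools included HTSeq, HISAT2, DESeq2, Cufflinks and SAMtools, with neither roles nor versions. The genome build is not given in the sources used here, nor is the strand setting, so overlapping and antisense transcripts and near-identical glycosyltransferases may share reads. Samples were grouped by the genotype label and numbered in accession order. The fits used edgeR 4.0.16 under R 4.3.3. The filter was filterByExpr (minimum count 10, minimum total 15, proportion 0.7), which kept 14279 rows with 99.8% of counts. Libraries were TMM-scaled, and group means of all 12 libraries were fitted without covariates, which left 8 residual degrees of freedom. The contrast was the knockout mean minus the mean of both control genotypes, tested with the two-sided quasi-likelihood test and Benjamini-Hochberg adjustment; 95% intervals use the SE from the F statistic and the moderated degrees of freedom. Log2 CPM used a prior count of 2. In single libraries 3 counts correspond to 0.173 to 0.558 CPM, a floor that covers counting error only. The fit was tested on simulated counts. No pair of replicates agreed within sampling noise (lowest chi-square per degree of freedom 8.59). Library measures were compared with SciPy 1.17.1.

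The rule for named rows took the 2 higher and 2 lower called rows without overlap that had the largest difference in mean CPM, the called members of each list, or its most abundant member, and UGT71L1. The second benzoyltransferase was added after its values were seen. The members, lists and tests were chosen with earlier results of these data known. Gene names come from memory of published assignments of these IDs, and no annotation was used here to check them. Alternatives were other scalings, filters, depth, DESeq2 1.42.0, limma-voom 3.58.1, glmTreat and libraries left out.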

Additional observations from a re-analysis of the deposited data

Results flagged for a closer look

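Among the 6 controls, empty-vector library 2 stood apart in total counts, at 17.3 M counts where the next deepest control had 9.77; its gap to that library was 0.636 of the controls' range. The benzoyltransferase Potri.019G043600.1 was highest in the same library, at 112 CPM where the next control read 71.1, a gap of 0.659 of the range. Gaps above 0.625 are expected by chance in about 1 of 20 groups.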

How the results depend on the processing

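The number of calls between knockout and controls stayed within 1.5 times of 4296 in all alternatives, from 3086 without knockout library 2 to 4642 without a filter, and 0 shared calls changed sign. Rows called lower ran from 1176 without knockout library 1 to 2153 without empty-vector library 2 over the fits with 1 library left out. The share of calls that were higher ran from 52.4% to 62.1% over those fits; it was 53.2% with upper-quartile scaling, 59.1% without a filter, 51.7% with 10 counts in 6 libraries, 59.3% in limma-voom, 55.1% with 9 libraries only, 58.4% with glmTreat and, in an alternative added after seeing the data, 58.9% without wild-type libraries 1 and 2. Calls between empty-vector and wild-type were 3 with upper-quartile scaling, 243 with DESeq2, 0 with 9 libraries only, 3 after thinning, 2 with glmTreat, 0 without empty-vector libraries 1 and 3, 0 without wild-type libraries 1 and 2, and 0 to 1302 with 1 library left out. Against empty-vector alone, leaving out its libraries 1 and 3 left 1624 calls, and against wild-type alone, leaving out its libraries 1 and 2 left 1057; in both, fewer samples remained. Wider bins, 5 in place of 10, gave 28.6% called in the lowest bin, rows that pass the filter after either removal (added after seeing the data) gave 17.5%, and bins by wild-type with the response against empty-vector gave 23.1% in the highest. Left-out libraries 2 and 3 matched in 96.8% and 92.1% when the control genotypes were exchanged. The filter of 10 counts in 6 libraries cannot keep a row with such counts in the knockout libraries alone. Its 51.7% of higher calls is therefore not free of the design. For changes not set by construction, the cause was not tested. No paired analysis was possible because the labels give the groups no shared replicate numbers.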
